A study of Mus musculus with 6 samples.

Results

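The genes described here are 10 core genes of the NF-kB system, taken from the 45706 genes measured in cultured mouse lung fibroblasts. They were picked by gene symbol from textbook roles: 4 transcription factor subunits (Nfkb1, Nfkb2, Rela, Relb), 4 inhibitors of the IkB family (Nfkbia, Nfkbie, Nfkbiz, Bcl3) and 2 feedback enzymes (Tnfaip3, Birc3). All 10 were found in the deposited table through their Ensembl identifiers, and all 10 had enough counts to be tested. The cells grew out of wild-type mouse lungs digested with collagenase and then trypsin. A control group (3 libraries) received no agent named in the labels, and a treated group (3 libraries) was given recombinant DKK1 protein (30 ng/ml) during 24 hours of culture. DKK1 is a secreted antagonist of Wnt signalling that acts through the co-receptors of the LRP family. The labels give no age, sex or number of animals and do not say whether replicates came from separate cultures, so p-values measure only the spread between these libraries.

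NF-kB factors are dimers that are held in the cytoplasm by IkB proteins until a receptor for a cytokine or a microbial product activates a kinase complex, which marks IkB for destruction. The freed dimers enter the nucleus and switch on genes of inflammation, and among these are genes for their own inhibitors, so that transcripts such as Nfkbia and Tnfaip3 are commonly read as a trace of recent signalling. In fibroblasts the pathway is known for driving chemokines, interleukin-6 and matrix-degrading enzymes.

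DKK1-treated cells held more Bcl3 and Nfkbiz mRNA than control cells, by 1.74-fold and 1.34-fold, and these 2 of the 10 genes passed the test in the unpaired fit, where 0.697% of all tested genes were called higher. The count was 0 in 4 of the 6 fits that each left out 1 library (control replicate 1 or 3, or DKK1 replicate 1 or 2). Bcl3 and Nfkbiz encode nuclear members of the IkB family, which bind NF-kB dimers on DNA and can raise as well as lower transcription. With the replicate number as a block, Nfkbia and Nfkb1 passed as well, at 1.24-fold and 1.15-fold higher, beside 4.96% of all tested genes called higher. The subunit genes Rela, Nfkb2 and Relb, the inhibitor gene Nfkbie and the feedback genes Tnfaip3 and Birc3 passed in neither fit.

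Promoter windows of 4 of the genes are shown because they carry matches to the kB consensus, the 10-base sequence bound by NF-kB dimers. The windows come from RefSeq on GRCm38.p6 and reach from 250 bases before to 50 bases after a transcription start. Entries were matched by symbol for 7 of the 10 genes, with 10 windows in all, since Nfkb2 has 3 and Tnfaip3 has 2. In the promoter set used no entry was matched for Nfkb1, Relb and Nfkbiz, so their promoters were not searched. Capitals mark each match on either strand, and all other bases are in lower case. The windows lie at chr7:19822706-19823005 for Bcl3 (minus strand), chr12:55492598-55492897 for Nfkbia (minus strand), chr19:46304487-46304786 for Nfkb2 (plus strand) and chr10:19015361-19015660 for Tnfaip3 (minus strand), each written 5′ to 3′ along the gene.
Bcl3: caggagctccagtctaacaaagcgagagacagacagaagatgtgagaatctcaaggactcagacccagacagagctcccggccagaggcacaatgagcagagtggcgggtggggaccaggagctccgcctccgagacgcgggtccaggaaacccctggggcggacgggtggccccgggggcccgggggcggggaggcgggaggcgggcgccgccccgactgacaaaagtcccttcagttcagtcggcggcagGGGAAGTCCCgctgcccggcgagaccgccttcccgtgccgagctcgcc
Nfkbia: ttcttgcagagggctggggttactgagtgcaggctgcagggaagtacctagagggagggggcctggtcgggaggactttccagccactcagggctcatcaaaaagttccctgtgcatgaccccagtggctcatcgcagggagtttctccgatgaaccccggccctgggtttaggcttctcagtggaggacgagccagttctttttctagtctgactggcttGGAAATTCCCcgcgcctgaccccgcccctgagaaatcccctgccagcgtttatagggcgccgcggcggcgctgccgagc
Nfkb2: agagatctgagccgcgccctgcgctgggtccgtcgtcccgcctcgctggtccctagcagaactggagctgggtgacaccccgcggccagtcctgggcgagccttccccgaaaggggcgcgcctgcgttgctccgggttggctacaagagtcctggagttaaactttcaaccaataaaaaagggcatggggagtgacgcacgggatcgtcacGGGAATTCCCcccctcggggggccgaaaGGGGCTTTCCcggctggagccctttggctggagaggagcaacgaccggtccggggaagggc
Tnfaip3: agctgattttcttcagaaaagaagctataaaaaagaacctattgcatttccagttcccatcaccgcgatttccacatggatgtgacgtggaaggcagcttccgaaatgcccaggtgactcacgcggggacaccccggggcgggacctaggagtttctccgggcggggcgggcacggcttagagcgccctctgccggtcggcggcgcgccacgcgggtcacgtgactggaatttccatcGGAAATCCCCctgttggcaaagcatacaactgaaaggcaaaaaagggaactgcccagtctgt

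A match was present in 6 of the 10 windows of these genes, belonging to 4 of the 7 genes, against 5.8% of all 32851 promoter windows of the same length (1769 of 27025 genes). In the other pathway lists described further on, 21.7% of 92 windows held a match (20 of 74 genes). The match in Bcl3 (GGGAAGTCCC) began at base 3 of the transcript, that in Nfkbia (GGAAATTCCC) 29 bases before the start and that in Tnfaip3 (GGAAATCCCC) 12 bases before it. The Nfkb2 window held 2 matches, GGGAATTCCC beginning 39 bases and GGGGCTTTCC beginning 11 bases before the start. The other 2 Nfkb2 windows overlap and share 1 site, GGGACTTTCC, which is therefore counted in 2 of the 6 windows, and the other Tnfaip3 window held no match. The windows of Rela, Nfkbie and Birc3 held none in the form of the consensus searched, which requires C or T at position 6 of the matching strand. The matches in Bcl3, Nfkbia and Tnfaip3 fit this form only when read on the strand opposite to the one written. With any base allowed at position 6, a form added after seeing the data, Nfkbie held a match too, and 7 of the 10 windows did (5 of 7 genes), against 8.46% of all windows and 26.1% of those of the other pathway genes. Genes with a match included both Bcl3, which changed most among the 10, and Nfkb2, whose fitted change was among the smallest. The matches are letters in a window and say nothing of binding in these cells.

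Library totals ranged from 22565917 to 34727102 expected counts, and the 10 genes had from 61 to 4178 counts per library. A level of 3 counts, used as the floor for detection, lay between 0.0864 and 0.133 CPM, the unit of counts scaled to the library total. Same-numbered libraries of both groups shared part of their deviation, and the first principal component, with 35.4% of the variance, set replicate 3 of both groups apart from replicates 1 and 2. Fibroblast markers were abundant: the 8 markers summed to 10582 to 12086 CPM in control and 9960 to 11485 CPM in DKK1 libraries. With the block Dcn and Pdgfra were called higher (log2 fold changes 0.62 and 0.27) and Col1a1, Col1a2, Pdgfrb and Thy1 lower (from -0.13 to -0.10), none of which was called unpaired. The 5 smooth muscle and myofibroblast markers summed to 8971 to 10031 CPM in control and 7676 to 8966 CPM in DKK1 libraries; all 5 were called lower with the block (log2 fold changes from -0.45 to -0.17), and Myh11 also in the unpaired fit (-0.30, edgeR adjusted p = 0.00387). The part of these shifts in the NF-kB results was not tested. Markers of macrophages and other leukocytes were also present and were highest in replicate 3 of both groups. The 10 genes of that list summed to 404 to 823 CPM in control and 462 to 882 CPM in DKK1 libraries, most of it Lyz2 at 340 to 722 CPM, whereas the T cell marker Cd3e had no count in any library and the B cell marker Cd79a at most 3 counts. In a bulk culture a change in the number of cells of one type and a change in RNA per cell cannot be told apart.

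**Figure D1:**
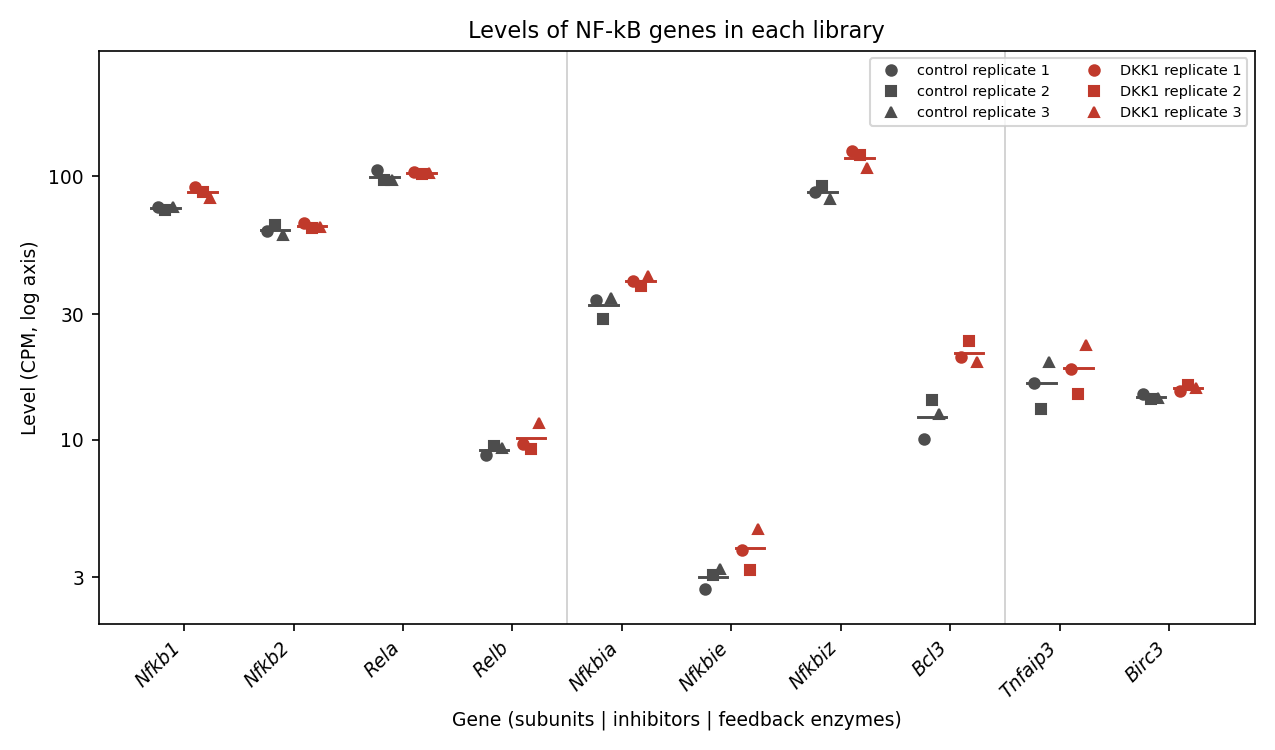
Level of each of the 10 genes in every library in CPM on a log axis, with control in grey, DKK1 in red, symbols for the replicate number and short lines for group means (n = 3 each). Grey and red points are separated for Nfkb1, Nfkbia, Nfkbiz, Bcl3 and Birc3 and interleave for the other 5 genes.

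Among the inhibitors, Bcl3 (ENSMUSG00000053175, chr7:19808462-19822770) encodes a nuclear IkB protein that binds homodimers of the Nfkb1 and Nfkb2 products. It measured 10.1, 14.1 and 12.5 CPM in control replicates 1 to 3 and 20.7, 23.8 and 19.8 CPM in DKK1 replicates 1 to 3. The lowest DKK1 library lay 5.66 CPM above the highest control library. The group means were 12.2 ± 2.04 and 21.4 ± 2.09 CPM (SD, n = 3 each), and the log2 fold change was 0.80 (SE 0.12, edgeR quasi-likelihood test with Benjamini-Hochberg adjustment over 14635 genes, adjusted p = 0.0281; with the replicate block 1.1e-05). The call was kept in 2 of the 6 fits that each left out 1 library, those without control replicate 2 and without DKK1 replicate 3, and the adjusted p over the 6 ran from 0.0365 to 0.125. Bcl3 overlaps 2 genes annotated on the opposite strand, Gm16174 with 3 to 11 counts per library and Gm16175 with at most 1, against 227 to 825 counts for Bcl3; whether counting used strand was not stated.

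Nfkbiz (ENSMUSG00000035356, chr16:55811375-55838899) encodes another nuclear IkB protein, known as a co-activator of secondary response genes such as Il6 and Lcn2. Its levels were 87.5, 91.6 and 82.2 CPM in the control libraries and 125, 120.3 and 107 CPM in the DKK1 libraries, replicates 1 to 3 in each case. Every DKK1 library stood above every control library, with a gap of 15.7 CPM between the groups. The means of 87.1 ± 4.72 and 117 ± 9.17 CPM (SD, n = 3 each) corresponded to 0.43 on the log2 scale (SE 0.07, edgeR adjusted p = 0.0276; with the replicate block 1.73e-06). Leaving out 1 library ended the call in 5 of 6 fits and kept it only without DKK1 replicate 3, with adjusted p-values from 0.00872 to 0.129. Nfkbiz alone made up 43.3% of the 70.1 CPM by which the summed level of the 10 genes differed between the groups. This is a share of counts, which also depend on transcript length, and not a share of transcripts.

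Nfkbia (ENSMUSG00000021025, chr12:55489410-55492647) encodes IkB alpha, the cytoplasmic inhibitor that is destroyed on signalling and made anew by NF-kB. Control libraries held 34.1, 28.6 and 34.6 CPM and DKK1 libraries 40.2, 38.5 and 41.9 CPM. The groups did not overlap, and control replicate 2 was the lowest library. The means were 32.4 ± 3.30 and 40.2 ± 1.71 CPM (SD, n = 3 each), and their log2 difference was 0.31 (SE 0.07, edgeR adjusted p = 0.128). With the replicate block the log2 fold change was 0.31 (SE 0.05) and passed the test (edgeR adjusted p = 0.000592).

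Nfkbie (ENSMUSG00000023947, chr17:45555703-45563169), which encodes IkB epsilon, was the scarcest of the 10 with 61 to 111 counts per library. Control libraries measured 2.70, 3.08 and 3.22 CPM and DKK1 libraries 3.80, 3.20 and 4.60 CPM. DKK1 replicate 2 fell within the control range. The log2 fold change of 0.35 had an approximate 95% interval from -0.05 to 0.74 (edgeR adjusted p = 0.547, and 0.216 with the block). It ran from 0.22 to 0.47 with 1 library left out. Counting error was 12.8% in the library with the fewest counts, and the group means were 3.00 ± 0.268 and 3.87 ± 0.702 CPM (SD, n = 3 each).

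Among the subunits, Nfkb1 (ENSMUSG00000028163, chr3:135584655-135691547) encodes a precursor that is cut to a DNA-binding subunit without an activation domain of its own. Levels were 76.2, 74.6 and 76.5 CPM in control and 91.2, 87.6 and 82.8 CPM in DKK1 libraries. The control libraries lay close together, and all DKK1 libraries lay above them. The means of 75.8 ± 1.03 and 87.2 ± 4.21 CPM (SD, n = 3 each) corresponded to 0.20 on the log2 scale (SE 0.04, edgeR adjusted p = 0.105 unpaired and 0.00188 with the block). The blocked call was lost when replicate 2 of both groups was left out (edgeR adjusted p = 0.0611).

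Rela (ENSMUSG00000024927, chr19:5637483-5648130) encodes the main activating subunit and was the most abundant of the 10 per transcript length. It stood at 106, 96.6 and 96.5 CPM in control and 104, 102 and 103 CPM in DKK1 libraries. The highest library of the 6 was a control. Its log2 fold change of 0.04 had an approximate 95% interval from -0.06 to 0.14 (edgeR adjusted p = 0.798, and 0.464 with the block). It ran from 0.02 to 0.09 with 1 library left out.

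Nfkb2 (ENSMUSG00000025225, chr19:46304320-46312385) and Relb (ENSMUSG00000002983, chr7:19606217-19629438) encode the subunits of the non-canonical dimer. Nfkb2 measured 62.0, 65.7 and 59.9 CPM in control and 66.4, 64.0 and 64.4 CPM in DKK1 libraries. Relb measured 8.77, 9.48 and 9.27 CPM in control and 9.63, 9.21 and 11.5 CPM in DKK1 libraries. The groups overlapped for both genes. Their log2 fold changes were 0.05 (95% interval -0.06 to 0.16) and 0.13 (-0.10 to 0.37), with edgeR adjusted p-values of 0.788 and 0.735 unpaired and 0.554 and 0.496 with the block. With 1 library left out, the unpaired log2 fold changes ran from 0.01 to 0.09 for Nfkb2 and from 0.03 to 0.19 for Relb. Nfkb2 overlaps Psd on the opposite strand, which had 64 to 97 counts per library against 1356 to 2221 for Nfkb2.

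The feedback genes encode enzymes that act on ubiquitin chains of the signalling complexes: Tnfaip3 removes and edits such chains and Birc3 is a ubiquitin ligase. Tnfaip3 (ENSMUSG00000019850, chr10:19000910-19015657) measured 16.4, 13.1 and 19.7 CPM in control and 18.5, 14.9 and 23.0 CPM in DKK1 libraries. The spread between replicate numbers exceeded the difference between groups: replicate 3 was the highest and replicate 2 the lowest library in both groups. The log2 fold change was 0.19 (95% interval -0.22 to 0.60, edgeR adjusted p = 0.784), and it ran from 0.03 to 0.34 with 1 library left out. With the block it was 0.19 (0.06 to 0.32), with an edgeR adjusted p of 0.066.

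Birc3 (ENSMUSG00000032000, chr9:7848699-7873186) stood at 15.0, 14.3 and 14.4 CPM in control and 15.3, 16.2 and 15.7 CPM in DKK1 libraries. The groups were separated by 0.328 CPM. The log2 fold change was 0.11 (95% interval -0.04 to 0.25, edgeR adjusted p = 0.634; with the block 0.399). Part of its counts were not whole in 4 of the 6 libraries, as happens when reads are shared between genes.

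**Figure D2:**
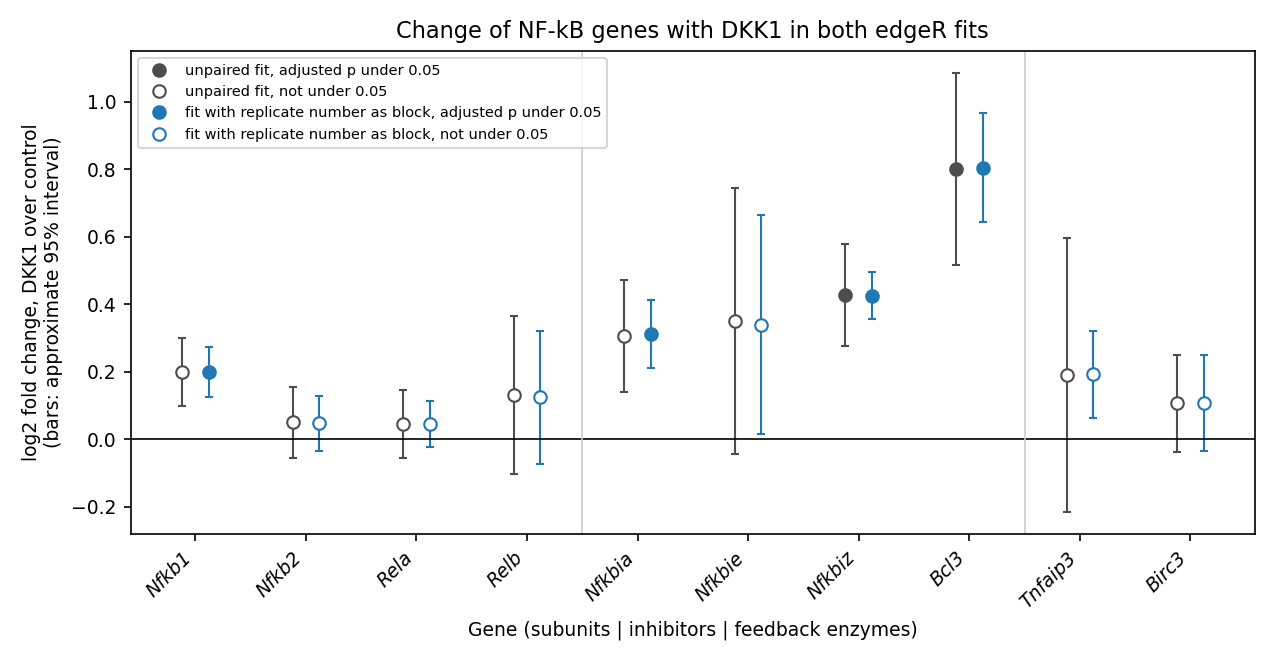
Log2 fold change (DKK1 over control, n = 3 each) of the 10 genes with its approximate 95% interval, in the unpaired edgeR fit (grey) and the fit with the replicate number as a block (blue); filled points had an adjusted p under 0.05. Filled grey points are seen for Bcl3 and Nfkbiz only, and filled blue points for Bcl3, Nfkbiz, Nfkbia and Nfkb1.

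No member of the 10 was called lower by edgeR in the unpaired fit or with the block, where 4.46% of all tested genes were called lower. In 5 of the 10 the 3 DKK1 libraries lay above the 3 control libraries, as in 9.4% of all tested genes. The fitted log2 fold change was positive in all 10, from 0.04 to 0.80, with a median of 0.19 beside a median of -0.00091 over all tested genes; 8 of these genes were not called in the unpaired fit. Among all 14635 genes ordered by p-value, Nfkbiz stood at place 83, Bcl3 at 87, Nfkb1 at 239 and Nfkbia at 294.

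The replicate numbers give a second view of the same libraries. The difference of log2(CPM + 0.5) between the DKK1 and the control library of one number was positive in all 3 numbers for 7 genes: Nfkb1, Nfkbia, Nfkbie, Nfkbiz, Bcl3, Tnfaip3 and Birc3. The share of all tested genes positive in all 3 numbers was not computed, so this count has no background. Bcl3 differed by 1.00, 0.73 and 0.64 in numbers 1, 2 and 3, and Nfkbiz by 0.51, 0.39 and 0.38. Both differences were largest in number 1. Nfkbia differed by 0.24, 0.42 and 0.27, and Tnfaip3 by 0.17, 0.18 and 0.22. The Tnfaip3 differences were close to each other although its levels were not, and this is the gene whose SE fell most with the block, from 0.18 to 0.06. Nfkb2 and Relb were lower with DKK1 in number 2, by 0.04 each, and Rela was lower in number 1, by 0.02.

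**Figure D3:**
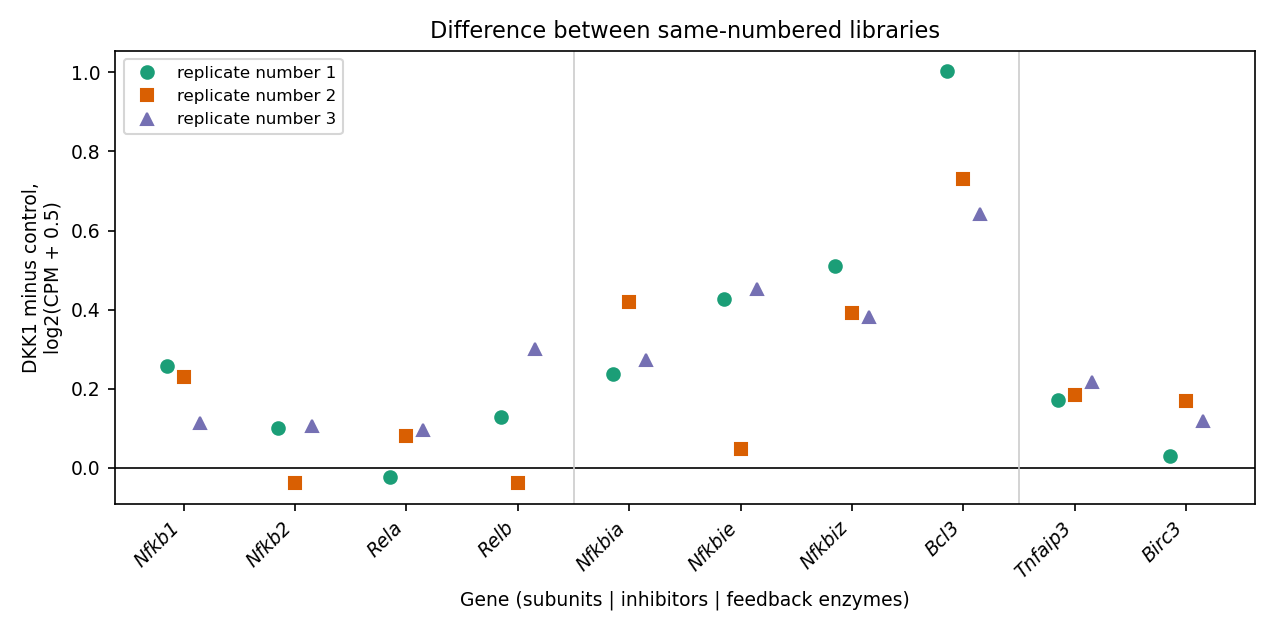
Difference of log2(CPM + 0.5) between the DKK1 and the control library with the same replicate number, for each of the 10 genes. All 3 points lie above 0 for 7 genes, and those of Bcl3 lie highest, from 0.64 to 1.00.

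Replicate 3 of both groups held the most marker RNA of leukocytes and also of epithelial, endothelial and mesothelial cells, whose lists summed to at most 73.7, 57.9 and 31.6 CPM in any library and had no member called in either fit. Because that replicate stood apart, the fits were repeated without it in both groups. Unpaired, Nfkbiz kept its call (log2 fold change 0.45, edgeR adjusted p = 0.0107) and Bcl3 missed it (0.86, adjusted p = 0.0618). With the block and without replicate 3, Bcl3, Nfkbiz, Nfkbia and Nfkb1 were all called, with log2 fold changes of 0.87, 0.44, 0.33 and 0.24. Within the leukocyte list the macrophage genes Marco and Itgam had fitted log2 fold changes of 1.65 and 1.07 and were called higher with the block only, like Adgre1 (edgeR adjusted p for Marco and Itgam = 2.51e-07 and 7.23e-08), while those of Ptprc, Cd68 and Csf1r were -0.14, -0.20 and -0.28, of which only that of Csf1r was called with the block (adjusted p = 0.0364). The part of leukocyte RNA in the NF-kB results was not tested.

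Levels can be compared between genes only per length. CPM divided by the kilobases of the longest principal transcript (RPKM, GENCODE M21 lengths) put Rela first in control cells at 36.7 ± 1.93, followed by Nfkbiz at 21.2 ± 1.15, Nfkbia at 20.5 ± 2.09, Nfkb2 at 19.9 ± 0.935 and Nfkb1 at 18.4 ± 0.25 RPKM (SD, n = 3). The ranges of Nfkbiz, Nfkbia and Nfkb2 overlapped, so their order is not resolved, while Nfkb1 lay below Nfkb2 in every control library. Next came Bcl3 at 6.61 ± 1.10 and Birc3 at 5.46 ± 0.128 RPKM, whose ranges overlapped, then Relb at 4.15 ± 0.164 and Tnfaip3 at 3.70 ± 0.75 RPKM, which also overlapped. Nfkbie was last at 1.23 ± 0.11 RPKM.

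After DKK1 the order of the means changed only between Nfkb1 and Nfkb2, and this change was not resolved because their ranges overlapped. Nfkb1, at 21.2 ± 1.02 RPKM, came to overlap Nfkb2, at 20.7 ± 0.418 RPKM, and Bcl3, at 11.6 ± 1.13 RPKM, no longer overlapped Birc3, at 5.89 ± 0.163 RPKM. Rela remained first at 38.0 ± 0.356 RPKM. Nfkbiz had the second highest mean at 28.5 ± 2.23 RPKM, before Nfkbia at 25.5 ± 1.08 RPKM. Their ranges overlapped (26.1 to 30.3 and 24.4 to 26.5 RPKM), so their order was again not resolved. Both now lay above the range of Nfkb2 (20.4 to 21.2 RPKM), which they had overlapped in control cells. With lengths taken over all annotated exons the control order was the same except that Nfkbia (20.1) came before Nfkbiz (17.4 RPKM).

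Ratios of these per-length levels within a library do not depend on how libraries were scaled. The Bcl3 to Nfkb1 ratio was 0.36 ± 0.0639 in control and 0.546 ± 0.0513 in DKK1 libraries (SD, n = 3 each), with ranges of 0.294 to 0.421 and 0.504 to 0.604. The Nfkbia to Rela ratio was 0.56 ± 0.0533 and 0.671 ± 0.0257, ranging from 0.51 to 0.616 and from 0.649 to 0.699. Both ratios were higher in every DKK1 library than in any control library, as was the Nfkb1 to Rela ratio at 0.503 ± 0.024 against 0.558 ± 0.0253. The Relb to Nfkb2 ratio overlapped between the groups, at 0.209 ± 0.00993 and 0.222 ± 0.0283.

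The rest of the pathway was examined through 6 further lists with 92 genes in all. Of the 3 other subunit and IkB genes 0 were called by edgeR in either fit or by DESeq2. In the unpaired edgeR fit 1 had an unadjusted p under 0.05, as had 1544 of all 14635 tested genes. Nfkbid, a further nuclear IkB gene, was scarce, with 0.41 ± 0.175 CPM before and 0.818 ± 0.206 CPM after DKK1 (SD, n = 3 each; log2 fold change 0.95, edgeR adjusted p = 0.415). Of the 12 other feedback genes 1 was called in the unpaired fit and 3 with the block, all higher, beside 0.697% and 4.96% of all tested genes called higher in these fits; the list median was 0.01. The called gene was Zc3h12a, which encodes an RNase that degrades inflammatory mRNAs: it rose from 15.6 ± 1.29 to 22.4 ± 1.54 CPM (log2 fold change 0.52, SE 0.08, edgeR adjusted p = 0.0272), and kept its call in 2 of the 6 fits that left out 1 library. Tnip1, which encodes a partner of the Tnfaip3 protein, and Birc2, the paralogue of Birc3, were called with the block only, at log2 fold changes of 0.22 and 0.19 (edgeR adjusted p = 0.0042 and 0.0276). DESeq2 with the block called 1 of the 12.

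The 20 kinases and adaptors showed 0 calls in the unpaired edgeR fit and 0 in DESeq2, and a median log2 fold change of 0.02. In the edgeR fit 2 of them had an unadjusted p under 0.05, beside 1544 of all 14635 tested genes. With the block 3 passed, 2 higher and 1 lower, beside 4.96% and 4.46% of all tested genes: Ikbke and Chuk, both kinases of the IkB kinase family, were higher by 0.35 and 0.13 on the log2 scale (edgeR adjusted p = 0.00812 and 0.00598), and Map3k14, the kinase of the non-canonical branch, was lower (log2 fold change -0.24, adjusted p = 0.0391). DESeq2 with the block called 0 of the 20. Among the 16 receptor genes Cd14, which encodes the co-receptor for endotoxin, rose from 9.31 ± 0.222 to 16.8 ± 1.18 CPM (SD, n = 3 each; log2 fold change 0.85, SE 0.08, edgeR adjusted p = 0.0028) and was called in all 6 fits that left out 1 library. Cd14 was the only receptor gene called in the unpaired fit, where 0.697% of all tested genes were called higher. With the block in edgeR 7 receptor genes passed, 6 higher and 1 lower, beside 4.96% of all tested genes called higher and 4.46% lower. DESeq2 with the block called 4, and the edgeR block without replicate 2 of both groups also called 4. The 7 genes included the interleukin-1 receptor chains Il1r1 and Il1rap, the interleukin-33 receptor Il1rl1 and the TNF receptor Tnfrsf1b. These named genes had log2 fold changes of 0.29, 0.18, 0.50 and 0.19 in the unpaired fit.

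Of the 11 ligand genes 5 had enough counts to be tested, and the 6 others had at most 13 counts in any library. Tnfsf12, which encodes a TNF family ligand, was the most abundant of the list in CPM, with 19.7 before and 20.8 after DKK1. Of the 5 tested, 0 were called unpaired in edgeR, and DESeq2 also called 0. In this edgeR fit 1 had an unadjusted p under 0.05, beside 1544 of all 14635 tested genes. With the block 1 was called in edgeR but 0 in DESeq2, beside 4.96% of all tested genes called higher with the block in edgeR. That gene was Il33, with 1.46 ± 0.391 CPM before and 2.74 ± 0.978 CPM after DKK1 (SD, n = 3 each; edgeR adjusted p = 0.324 unpaired and 0.0109 with the block). Tnf, the classic activator of the pathway, measured 0.468 ± 0.295 and 0.537 ± 0.125 CPM (edgeR adjusted p = 0.95), with an approximate 95% interval of the log2 fold change from -0.86 to 1.22.

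Textbook target genes gave the largest values. Of the 27 that could be tested, 12 were called higher and 0 lower in the unpaired fit, and 17 higher and 1 lower with the block, beside 0.697% of all tested genes called higher unpaired and 4.96% higher and 4.46% lower with the block. Without control replicate 2 the unpaired count was 6. The list had a median log2 fold change of 0.64. This list overlaps the inflammatory genes already known to be higher in these libraries and is no independent evidence of its direction. C3, the central complement gene, rose from 13.1 ± 2.95 to 47.1 ± 2.05 CPM (SD, n = 3 each; log2 fold change 1.83, SE 0.13, edgeR adjusted p = 0.00154). Cxcl2, a neutrophil chemokine gene, rose from 0.209 ± 0.165 to 1.37 ± 0.239 CPM (log2 fold change 2.70, SE 0.44, adjusted p = 0.0336), with 1 control library at 2 counts, under the floor, and it kept the call in 1 of the 6 fits that left out 1 library. The other called genes with the largest changes were Lcn2, Cxcl5, Cxcl1, Il6, Ccl7 and Ccl2, with log2 fold changes from 1.27 to 3.26. Lcn2, the highest of these, also had a control library at 2 counts and kept its call in 2 of the 6 fits. Saa3, Mmp9, Mmp13 and Vcam1 were called with the block only, at log2 fold changes of 2.54, 1.26, 0.67 and 0.36 in the unpaired fit.

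**Figure D4:**
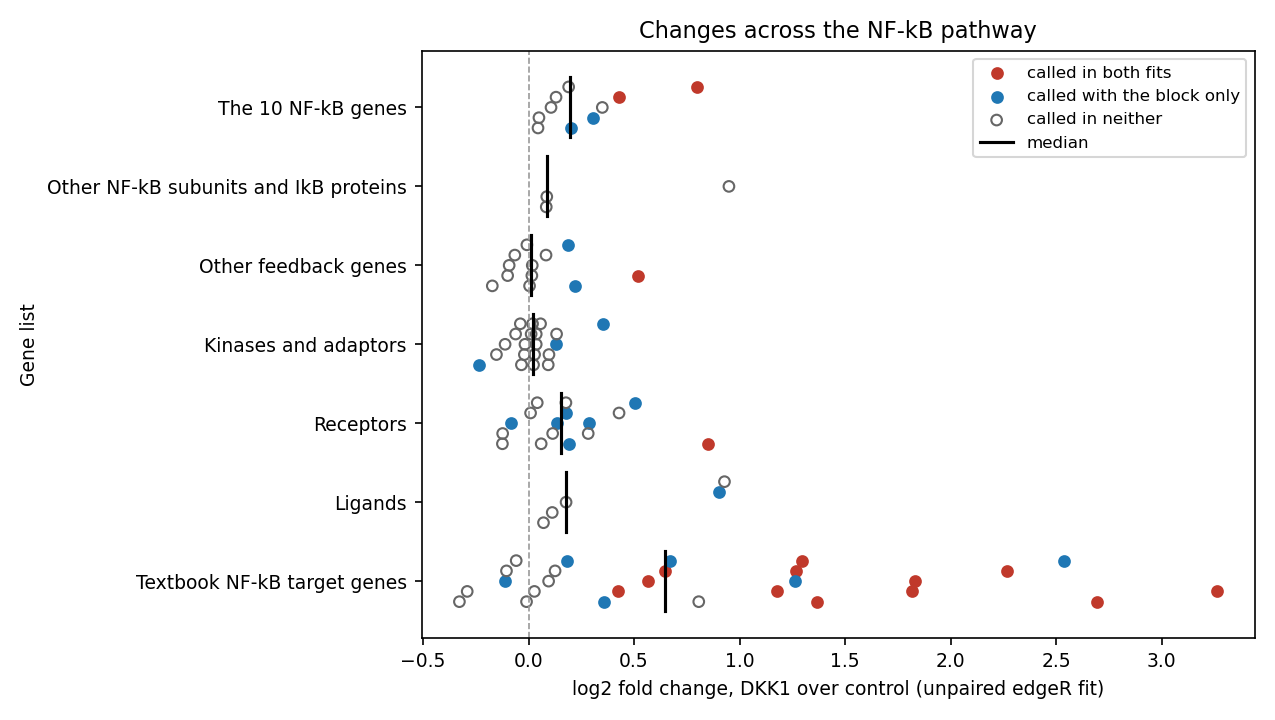
Log2 fold change (DKK1 over control, unpaired edgeR fit) of each tested gene in the 10-gene group and in the 6 further pathway lists, with red for genes called in both fits, blue for genes called with the block only, open circles for genes called in neither and a black line for the list median. The medians of kinases and adaptors (0.02) and of other feedback genes (0.01) sit at about 0, that of the 10 genes at 0.19 and that of the target genes at 0.64.

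Finally, genes outside all lists were ordered by how near their profile over the 6 libraries lay to the mean profile of the 10 genes, measured as the root mean square difference of centred log2(CPM + 0.5) over the 12901 genes whose mean reached 1 CPM. The nearest 6 were Tm4sf1 (difference 0.00802), Csad (0.0174), Tank (0.0206), Zfp472 (0.0264), Psmd10 (0.0302) and Tmem185a (0.0335). For comparison, the 10 genes themselves lay from 0.0682 (Nfkb1) to 0.317 (Bcl3) from their own mean. Of the nearest 6, Tm4sf1 rose from 424 ± 8.90 to 505 ± 16.3 CPM and Tank from 35.3 ± 0.472 to 43.2 ± 1.58 CPM (SD, n = 3 each; edgeR adjusted p = 0.0159 and 0.0255), and the other 4 were not called in the unpaired fit. With the block Psmd10 and Tmem185a were called as well (edgeR adjusted p = 0.0105 and 0.00552). Since this ordering uses the group difference itself, it describes likeness only.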

How the data were processed

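RNA was measured by sequencing in 3 control and 3 DKK1-treated libraries. The authors deposited RSEM expected counts per gene, unscaled; STAR, RSEM, edgeR 4.2.1 and the build GRCm38 (mm10) are named in the submitters' processing notes, without their roles, and annotation release and strandedness are not given in the sources used here. Symbols were matched for 45143 of 45706 identifiers. Gene positions, lengths and overlaps came from GENCODE M21 (GRCm38).

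Expected counts were rounded, filtered with filterByExpr (minimum count 10; 14635 genes, at least 99.9% of counts) and scaled with TMM. The edgeR 4.0.16 quasi-likelihood test (R 4.3.3, two-sided, Benjamini-Hochberg over all genes, threshold 0.05) compared the groups. SEs are the absolute log2 fold change over the square root of F, and 95% intervals use the test's degrees of freedom. CPM use whole library totals. Floors and counting errors cover counting only, because PCR copies cannot be told from separate molecules in these files. The fit was run on simulated data. The changes planted there were larger than any seen in the 10 genes, so changes of their size were not covered.

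The labels number replicates 1 to 3 in both groups. Deviations of same-numbered libraries from their group means correlated at 0.349, 0.335 and 0.499 across genes, all over 0.1, so the numbers were taken to pair the libraries and values with the replicate block are given where they change a call. Alternatives were DESeq2 size factors, library totals only, other filters, DESeq2 1.42.0, limma-voom 3.58.1, unrounded counts, the block, and leaving out libraries; leaving out each number of both groups with the block, and a wider kB consensus, were added after seeing the data.

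The 10 genes, the pathway and marker lists and the rules were chosen with earlier results of these data known. Named were all 10 genes; from each pathway list the called genes (up to 8) and those called with the block only (up to 4), by size of change; Nfkbid, Tnf and Tnfsf12, and the named marker genes of cell types, were chosen after their values were seen; and the 6 genes with the nearest profile.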

Additional observations from a re-analysis of the deposited data

How the results depend on the processing

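The number of genes called over the whole table, 131 in the unpaired fit, was 329 without a low-count filter, 289 with DESeq2, 1379 with the replicate block and 551 with DESeq2 and the block. It ran from 36 to 139 when 1 library was left out, with 51, 36, 44 and 57 without control replicates 1 and 2 and DKK1 replicates 1 and 2. With the block and 1 replicate number left out of both groups it ran from 612 to 1312 (1059 without replicate 3). Of the 10 NF-kB genes, 2 were called unpaired, 4 without a low-count filter, 4 with the block in edgeR and in DESeq2, and 1 without replicate 3 of both groups. Leaving out 1 library gave 0 to 3 calls among the 10 (0 without control replicate 1 or 3 or DKK1 replicate 1 or 2), and the block with 1 number left out gave 3 to 4. Their median log2 fold change ranged from 0.163 to 0.267 over the fits that left out 1 library, highest without control replicate 3. Each of the 10 kept a positive log2 fold change in all 20 fits, called or not. These fits reuse the same 6 libraries, so they are no separate evidence of the sign. With DESeq2 unpaired, Nfkbia was called as well (adjusted p = 0.0397).

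Other feedback genes went from 1 call to 3 with the block, to 0 without replicate 3 of both groups, to 0 to 1 with 1 library left out (0 without control replicate 1 or 2 or DKK1 replicate 1 or 2) and to 1 to 3 with the block and 1 number left out. Kinases and adaptors went from 0 to 3 with the block (2 to 3 with 1 number left out). Receptors went from 1 to 2 without a filter and with DESeq2, to 7 with the block (4 to 6 with 1 number left out) and to 4 with DESeq2 and the block. Ligands went from 0 to 1 with the block (0 to 1 with 1 number left out). Calls among target genes ran from 6 to 12 with 1 library left out, lowest without control replicate 2. The causes were not tested. Counts per library were fewest for Nfkbie among the 10 genes, at 61 to 111.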
